A study of Mus musculus with 24 samples.

Results

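The purinergic and adenosine pathway genes were *Entpd1*, *Nt5e*, *Adora2a*, *Adora2b*, *Adora3*, *P2rx4*, *P2rx7*, *P2ry6*, *P2ry13* and *P2ry14*, found in the expression table by their Ensembl identifiers without version. All 10 were among the 17301 genes of the table, and all 10 passed the filter on low values that left 12878 genes for testing. RNA was sequenced from 4 myeloid populations, sorted by flow cytometry from mouse colon lamina propria (LP) and from colon tumours, with 3 libraries per population and tissue, 24 in all. The LP came from C57BL/6J mice, and the tumours came from *Apc* Min/+ mice, whose germline *Apc* mutation leads to intestinal adenomas. Each library pooled the tissue of 13 to 15 mice, aged 3 to 4 months at collection.

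The sorted populations were F4/80hi CD11b+ MHCIIhi macrophages, F4/80hi CD11b+ MHCIIlow macrophages, Ly6Chi MHCII- monocytes and Ly6Ghi F4/80- CD11b+ neutrophils. The mice with tumours had been given dextran sodium sulphate. The methods describe this agent for C57BL/6J control mice as well, while the labels call the LP healthy, so that the treatment of the LP donors is not settled. Tumour and LP also differed in genotype and in the digestion and density gradient used to free the cells, and these cannot be told apart from the tissue. Gene counts recovered from the table summed to 12.8 to 41.7 M reads a library (median 26.4 M). The summed level of 10 neutrophil markers was 12250 to 36470 RPKM in neutrophil libraries. RPKM is a read count divided by the length of the gene and by the size of its library. That sum was at most 577.7 RPKM in monocyte and 58.1 RPKM in macrophage libraries. The sum of 9 macrophage markers was 4264 to 8113 RPKM in macrophage and at most 1300 RPKM in other libraries. The sum of 6 monocyte markers overlapped between monocytes (857.5 to 3514 RPKM) and neutrophils (648.5 to 1293 RPKM). B and plasma cell markers (9) summed to 1457 to 5557 RPKM in LP and 18.8 to 63.6 RPKM in tumour monocytes. In neutrophils they summed to 3028 to 12930 RPKM in LP and 63.6 to 201 RPKM in tumour. The summed level of 8 fibroblast markers was 7.67 to 62.6 RPKM in LP libraries and 0.668 to 1.82 RPKM in tumour libraries. In bulk RNA of a sorted population, fewer cells of a type and less RNA per cell cannot be told apart.

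Extracellular ATP is a danger signal that leaves stressed and dying cells. On the cell surface CD39, the product of *Entpd1*, trims ATP and ADP to AMP, and CD73, the product of *Nt5e*, turns AMP into adenosine. Nucleotides act on P2X receptors, which are cation channels opened by ATP, and on P2Y receptors, which are coupled to G proteins. Adenosine acts on its own G protein coupled receptors, of which those encoded by *Adora2a* and *Adora2b* raise cyclic AMP and restrain inflammatory responses of myeloid cells, whereas that encoded by *Adora3* lowers cyclic AMP. Macrophages, monocytes and neutrophils are known to carry enzymes and receptors of all these kinds.

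Promoter sequences are shown for *Adora2b*, *Adora3* and *P2ry13*, 3 receptors whose level differed between tumour and LP in both macrophage subsets. RefSeq windows of 250 bases before the transcript start, on GRCm38.p6, matched 8 of the 10 genes, and those printed held no annotated exon of their gene. They were searched on both strands for the letters ACGTG (hypoxia response core), TGACG (CRE core), TGANTCA (AP-1) and GAGGAA (PU.1 core), and capitals mark the matches.
Adora2b, chr11:62248734-62248983, plus strand: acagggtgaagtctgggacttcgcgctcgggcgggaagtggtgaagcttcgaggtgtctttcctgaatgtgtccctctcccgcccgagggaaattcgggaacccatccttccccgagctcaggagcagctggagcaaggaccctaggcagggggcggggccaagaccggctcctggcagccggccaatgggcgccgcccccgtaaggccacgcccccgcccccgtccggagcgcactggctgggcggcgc
Adora3, chr3:105904171-105904420, plus strand: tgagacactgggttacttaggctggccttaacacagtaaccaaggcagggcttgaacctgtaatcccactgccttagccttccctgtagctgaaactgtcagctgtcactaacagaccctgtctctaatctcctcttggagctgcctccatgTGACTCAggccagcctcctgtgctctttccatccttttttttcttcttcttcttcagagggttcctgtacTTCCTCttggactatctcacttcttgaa
P2ry13, chr3:59210883-59211132, minus strand: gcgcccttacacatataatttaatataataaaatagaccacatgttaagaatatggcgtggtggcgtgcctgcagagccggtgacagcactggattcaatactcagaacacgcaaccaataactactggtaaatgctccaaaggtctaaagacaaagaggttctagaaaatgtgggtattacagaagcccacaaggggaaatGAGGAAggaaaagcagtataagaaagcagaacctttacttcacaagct
The *Adora2b* window, with 69.6% G and C, held none of the 4 sets of letters. The *Adora3* window held TGANTCA and, on the reverse strand, GAGGAA, and the *P2ry13* window held GAGGAA 48 bases before the start. Among all 32817 windows of this length, 23.3% held GAGGAA, 6.75% held TGANTCA, 17.8% held TGACG and 16.6% held ACGTG, so that the matches are a description and not evidence of binding.

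The level of every member differed among the 8 groups (10 of 10, against 88.2% of all genes tested, limma moderated F test with Benjamini-Hochberg adjustment, adjusted p under 0.05). The ectonucleotidases were highest in neutrophils. *Adora2a* and *Adora2b* were highest in monocytes. *P2rx4*, *P2rx7*, *P2ry6* and *P2ry14* were highest in 1 of the macrophage groups. Each fold change below is a difference of log2 RPKM with its standard error (SE), and each adjusted p is from limma over the 12878 genes. Wherever macrophages as a whole are set against monocytes, the mean of the MHCIIhi and MHCIIlow groups is used.

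**Figure D1:**
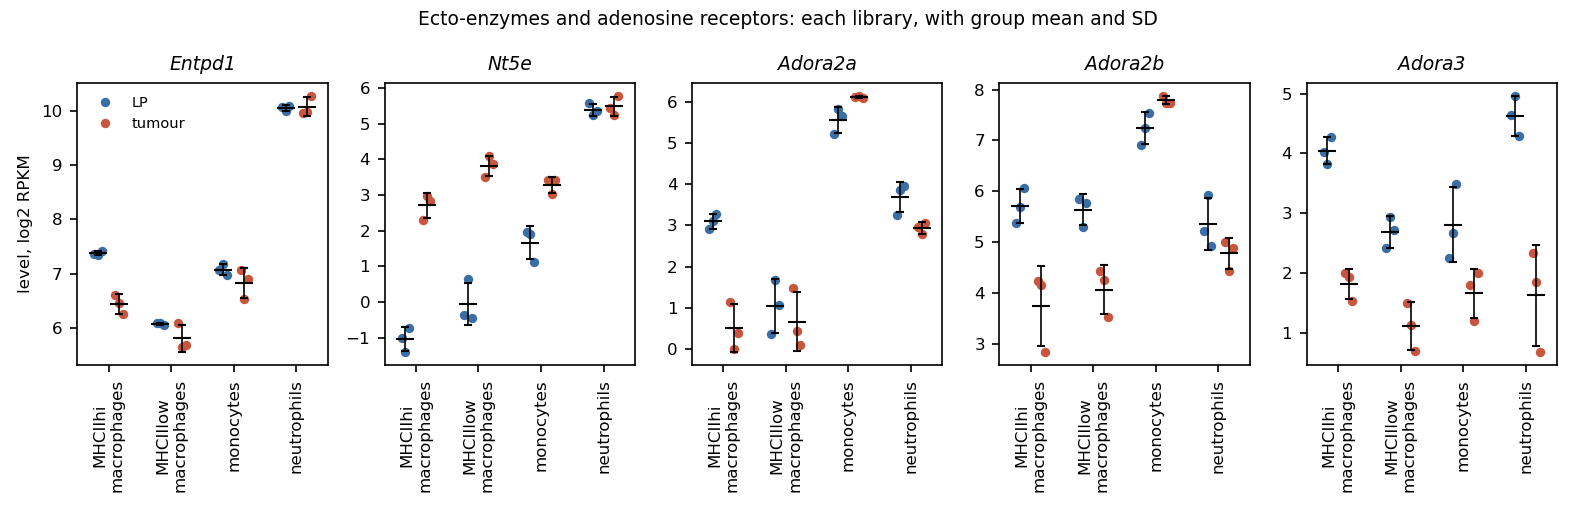
Level (log2 RPKM) of the ectonucleotidases and adenosine receptors in each of the 24 libraries, LP in blue and tumour in red, with a black line and bar for the mean and SD of 3 libraries and a separate vertical scale for each gene. The tumour macrophages lie above the LP macrophages for *Nt5e* and below them for *Adora2b* and *Adora3*, and neutrophils are highest for *Entpd1* and *Nt5e*.

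*Nt5e* (ENSMUSG00000032420.7; GRCm38 chromosome 9, 88327197 to 88372092, plus strand), which encodes the enzyme CD73, rose by more than any other member in tumour macrophages. Its level was 0.492, 0.379 and 0.604 RPKM in the LP MHCIIhi libraries and 4.92, 7.88 and 7.16 RPKM in the tumour MHCIIhi libraries. The MHCIIlow libraries held 0.781, 1.55 and 0.734 RPKM in LP and 11.4, 17.0 and 14.5 RPKM in tumour. The groups did not overlap in either subset. The rise was 3.76 log2 units in MHCIIhi (SE 0.29, a 13.5-fold rise, limma adjusted p = 3.2e-08) and 3.88 log2 units in MHCIIlow macrophages (SE 0.29, 14.7-fold, limma adjusted p = 1.75e-08). The lowest recovered count behind these levels was 109 reads in an LP MHCIIlow library. In monocytes *Nt5e* went from 3.86, 3.76 and 2.19 RPKM in LP to 10.7, 8.17 and 10.7 RPKM in tumour, a rise of 1.62 log2 units (SE 0.29, limma adjusted p = 0.00116) with no overlap. In neutrophils it was high in both tissues, at 37.6 to 47.6 RPKM in LP and 38.1 to 55.1 RPKM in tumour. The neutrophil difference of 0.11 log2 units did not pass the test (95% interval from -0.50 to 0.71, limma adjusted p = 0.822), and these groups overlapped. The tumour effect on *Nt5e* was larger in macrophages than in monocytes by 2.19 log2 units (SE 0.36, limma interaction adjusted p = 4.26e-04), and smaller in neutrophils than in monocytes by 1.52 log2 units (interaction of -1.52, SE 0.41, limma adjusted p = 0.0242). The latter passed the limma test in 16 of 21 alternatives and was lost on leaving out LP monocyte library V (adjusted p = 0.0679), LP neutrophil library III (0.0558), tumour monocyte library I (0.0553) or V (0.0532), or tumour neutrophil library II (0.0539). T cells, endothelial cells and fibroblasts are also known to carry CD73, and their markers moved in different directions. Of 14 T and NK cell markers 12 were in the table, and their sum was mostly *Cd4* in each macrophage group (68.9 to 97.3% of it). Without *Cd4* the sum was 1.94 to 2.64 RPKM in LP and 1.51 to 5.25 RPKM in tumour MHCIIhi macrophages. In MHCIIlow macrophages it was 1.5 to 9.89 RPKM in LP and 4.93 to 19.3 RPKM in tumour, where the group mean was higher for 10 of the 12 markers, among them *Trac* (0.733 RPKM in LP and 2.42 RPKM in tumour). Without overlap between the tissues, 1 of the 12 was higher and 1 lower in tumour MHCIIlow macrophages. The sum of 6 endothelial markers, mostly *Pecam1*, overlapped between the tissues in MHCIIhi macrophages, and was 1.08 to 10.24 RPKM in LP and 10.56 to 17.6 RPKM in tumour MHCIIlow macrophages. Without *Pecam1* it was 0.604 to 2.35 RPKM and 0.123 to 1.12 RPKM there. The fibroblast markers were lower in tumour in both subsets, as given above. In tumour MHCIIhi macrophages 6 of 10 neutrophil markers had a higher mean and 3 a lower one. In MHCIIlow macrophages 9 were higher and 1 lower. Without *Csf3r* their sum there was 1.26 to 10.4 RPKM in LP and 25.2 to 31.0 RPKM in tumour. Of 9 epithelial markers, 8 had a higher mean in tumour MHCIIhi macrophages, and 7 in MHCIIlow macrophages and in monocytes, the rest lower. Their sums overlapped between the tissues. The part of these cells in the rise of *Nt5e* was not tested.

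*Entpd1* (ENSMUSG00000048120.12; chromosome 19, 40612366 to 40741602, plus strand), which encodes CD39, was the most abundant member in neutrophils. In LP MHCIIhi macrophages the libraries held 164, 163 and 171 RPKM and in tumour MHCIIhi macrophages 97.5, 88.3 and 76.2 RPKM, so the groups did not overlap. It fell by 0.93 log2 units (SE 0.14, a 1.91-fold drop, limma adjusted p = 8.28e-05). The MHCIIlow libraries stood at 68.0, 68.1 and 66.3 RPKM in LP and 68.8, 50.4 and 51.6 RPKM in tumour, with overlap and a difference of -0.26 log2 units (SE 0.14, limma adjusted p = 0.209). Monocytes had 126 to 145 RPKM in LP and 92.8 to 135 RPKM in tumour, and neutrophils 1018 to 1092 RPKM in LP and 992 to 1236 RPKM in tumour. Neither of these differences passed the test, with limma adjusted p = 0.348 in monocytes and 0.944 in neutrophils. The neutrophil estimate was 0.02 log2 units. Of the alternatives, quantile normalization alone called a difference in neutrophils, with the other sign (-0.39 log2 units, limma adjusted p = 0.0334).

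Because the enzymes act in sequence, their levels were set side by side within each library, on the RPKM scale, which is per gene length. The median of the *Entpd1* to *Nt5e* ratio was 333 in LP MHCIIhi macrophages (range 283 to 430), and 11.2 in tumour MHCIIhi macrophages (10.6 to 19.8). It was 87.1 in LP MHCIIlow macrophages (44.1 to 90.4) and 3.55 in tumour MHCIIlow macrophages (2.97 to 6.03). In monocytes the median was 38.5 in LP and 11.4 in tumour, and in neutrophils 26.7 in LP and 22.8 in tumour. The ratios of the tumour and LP groups did not overlap in macrophages or monocytes, whereas they overlapped in neutrophils.

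**Figure D2:**
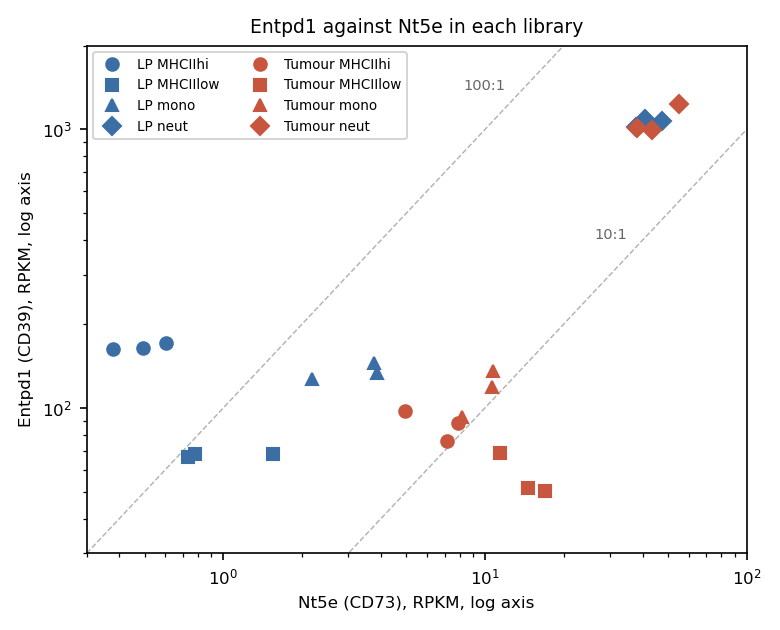
*Entpd1* level (vertical, RPKM) against *Nt5e* level (horizontal, RPKM) in each of the 24 libraries on log axes, with colour for the tissue, symbol for the population and dashed lines at ratios of 10 and 100. The LP macrophages lie at 0.379 to 1.55 RPKM of *Nt5e* and the tumour macrophages at 4.92 to 17.0 RPKM, while neutrophils of both tissues lie together at the top right.

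Of the adenosine receptors, *Adora2b* and *Adora3* fell in both subsets of tumour macrophages and *Adora2a* in the MHCIIhi subset. *Adora2b* (ENSMUSG00000018500.2; chromosome 11, 62248984 to 62266453, plus strand), a receptor of low affinity for adenosine, was at 41.8, 51.8 and 66.9 RPKM in LP and 18.8, 17.99 and 7.23 RPKM in tumour MHCIIhi macrophages. Among MHCIIlow macrophages the values were 58.0, 39.4 and 54.4 RPKM in LP and 21.6, 19.1 and 11.5 RPKM in tumour. Every tumour library was below every LP library, with tumour library VII the lowest in each subset. *Adora2b* fell by 1.96 log2 units in MHCIIhi (SE 0.33, limma adjusted p = 2.04e-04) and by 1.57 log2 units in MHCIIlow macrophages (SE 0.33, limma adjusted p = 0.00133). Monocytes held 120, 153 and 186 RPKM in LP and 235, 215 and 214 RPKM in tumour, with the tumour libraries above those of LP, but the difference of 0.55 log2 units did not pass the test (95% interval from -0.13 to 1.23, limma adjusted p = 0.344). In neutrophils the libraries held 37.5, 60.8 and 30.5 RPKM in LP and 32.3, 21.8 and 29.8 RPKM in tumour, with overlap and a difference of -0.58 log2 units (95% interval from -1.26 to 0.11, limma adjusted p = 0.192). The tumour effect was lower in macrophages than in monocytes by 2.32 log2 units (interaction of -2.32, SE 0.40, limma adjusted p = 7.51e-04). Some markers of other cells moved in the same direction as *Adora2b* in macrophages. All 6 monocyte markers were lower in tumour MHCIIhi macrophages without overlap, with a sum of 58.55 to 65.8 RPKM in LP and 13.1 to 18.1 RPKM in tumour. Of the LP sum *F13a1* made up 69.2%, and the other markers summed to 16.9 to 21.1 RPKM in LP. In MHCIIlow macrophages the sum was 126 to 453 RPKM in LP and 13.4 to 24.6 RPKM in tumour, but in LP *F13a1* made up 97.5% of it, and the other markers summed to 3.18 to 9.36 RPKM in LP and 4.51 to 8.99 RPKM in tumour. The sum of 8 dendritic cell markers, of which *Ccr7* made up 79.7% in LP, was 52.2 to 74.4 RPKM in LP and 7.64 to 17.9 RPKM in tumour MHCIIhi macrophages, where *Entpd1* and *Adora2a* fell too. In MHCIIlow macrophages it was 9.85 to 18.03 RPKM in LP and 5.22 to 6.76 RPKM in tumour. In monocytes 4 of the 6 monocyte markers had a higher mean in tumour, 3 of them without overlap, and 2 a lower mean with overlap. Of markers singled out after their values were seen, *Chil3* had a mean of 651 RPKM in LP and 2382 RPKM in tumour monocytes. *F13a1* was at 83.4 to 92.2 RPKM in LP and 174 to 341 RPKM in tumour monocytes. The 2 lower ones were *Ccr2* (112 and 92.4 RPKM) and *Ly6c2* (70.3 and 61.2 RPKM), whose product marks the sorted cells. The part of these cells in the results for *Adora2b*, *Adora2a* and *Entpd1* was not tested.

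*Adora2a* (ENSMUSG00000020178.5; chromosome 10, 75316877 to 75334784, plus strand), a receptor of high affinity for adenosine, passed the test in 1 of the 4 populations, falling in tumour MHCIIhi macrophages. The libraries held 7.51, 8.62 and 9.64 RPKM in LP and 2.21, 1.00 and 1.32 RPKM in tumour, without overlap. The fall was 2.58 log2 units (change of -2.58, SE 0.34, a 5.98-fold drop, limma adjusted p = 1.69e-05). In MHCIIlow macrophages it was low in both tissues, at 1.30, 3.19 and 2.10 RPKM in LP and 2.78, 1.35 and 1.08 RPKM in tumour, with overlap and a difference of -0.37 log2 units (limma adjusted p = 0.495). The tumour effect differed between the subsets by 2.21 log2 units (SE 0.48, limma interaction adjusted p = 0.0249). That difference was lost with only the macrophage libraries in the fit (limma adjusted p = 0.139) and on leaving out LP MHCIIhi library IV (0.0632) or V (0.0685), LP MHCIIlow library II (0.0633), tumour MHCIIhi library VII (0.0655) or tumour MHCIIlow library I (0.0515). In monocytes *Adora2a* was at 36.8, 56.7 and 50.04 RPKM in LP and 68.9, 70.5 and 67.8 RPKM in tumour, and in neutrophils at 9.57 to 15.4 RPKM in LP and 6.93 to 8.33 RPKM in tumour. Neither group pair overlapped, but neither passed the test (limma adjusted p = 0.373 and 0.101). The monocyte difference was called by voom (limma-voom adjusted p = 0.033) and the neutrophil one on the log2(RPKM + 1) scale (0.0363). With the subsets averaged, the tumour effect in macrophages differed from that in monocytes by -2.03 log2 units (SE 0.42, limma adjusted p = 0.00336). The subsets themselves changed by -2.58 log2 units in MHCIIhi and -0.37 log2 units in MHCIIlow macrophages.

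*Adora3* (ENSMUSG00000000562.4; chromosome 3, 105870858 to 105908926, plus strand), the receptor that lowers cyclic AMP, was lower in tumour in 3 of the 4 populations by the test. In MHCIIhi macrophages it went from 16.3, 14.2 and 19.4 RPKM in LP to 3.99, 3.81 and 2.89 RPKM in tumour, a fall of 2.22 log2 units (change of -2.22, SE 0.36, limma adjusted p = 1.78e-04). MHCIIlow libraries went from 5.32, 7.69 and 6.57 RPKM to 2.82, 2.18 and 1.62 RPKM, a change of -1.59 log2 units (SE 0.36, limma adjusted p = 0.00302). The largest drop was in neutrophils, from 25.0, 31.0 and 19.6 RPKM to 5.05, 3.60 and 1.60 RPKM, a change of -3.01 log2 units (SE 0.36, an 8.04-fold drop, limma adjusted p = 4.53e-06). No tumour library reached its LP group in any of these. In monocytes the values were 4.76, 6.39 and 11.3 RPKM in LP and 3.47, 2.302 and 3.98 RPKM in tumour, also without overlap, and the change of -1.14 log2 units missed the threshold (limma adjusted p = 0.0536, called in 5 of 15 alternatives). The neutrophil effect was lower than the monocyte effect by 1.86 log2 units (interaction of -1.86, SE 0.51, limma adjusted p = 0.0275). That difference held in 12 of 21 alternatives, and was lost with quantile normalization (0.187), with only the libraries compared (0.106), with voom (0.104), and on leaving out any of 6 libraries: LP monocytes III (0.0771) or IV (0.053), LP neutrophils IV (0.0571), tumour monocytes I (0.0587) or V (0.0673) or tumour neutrophils V (0.0589). In LP neutrophils 8 dendritic cell markers, led by *Ccr7*, summed to 93.4 to 187 RPKM. There 9 B and plasma cell markers, led by *Igkc*, summed to 3028 to 12930 RPKM. Both sums were above those of tumour neutrophils (2.82 to 20.6 RPKM and 63.6 to 201 RPKM). The part of these cells in the fall of *Adora3* was not tested. Eosinophil markers, 4 of 8 in the table, summed to 22.7 to 42.6 RPKM in LP and 21.05 to 31.9 RPKM in tumour neutrophils, with overlap. Of the exon bases of *Adora3*, 20.9% are shared with *Tmigd3* on the same strand, so its level is uncertain to the extent that reads were split between these genes. *Tmigd3* itself had group means of 0.0492 to 0.694 RPKM.

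**Figure D3:**
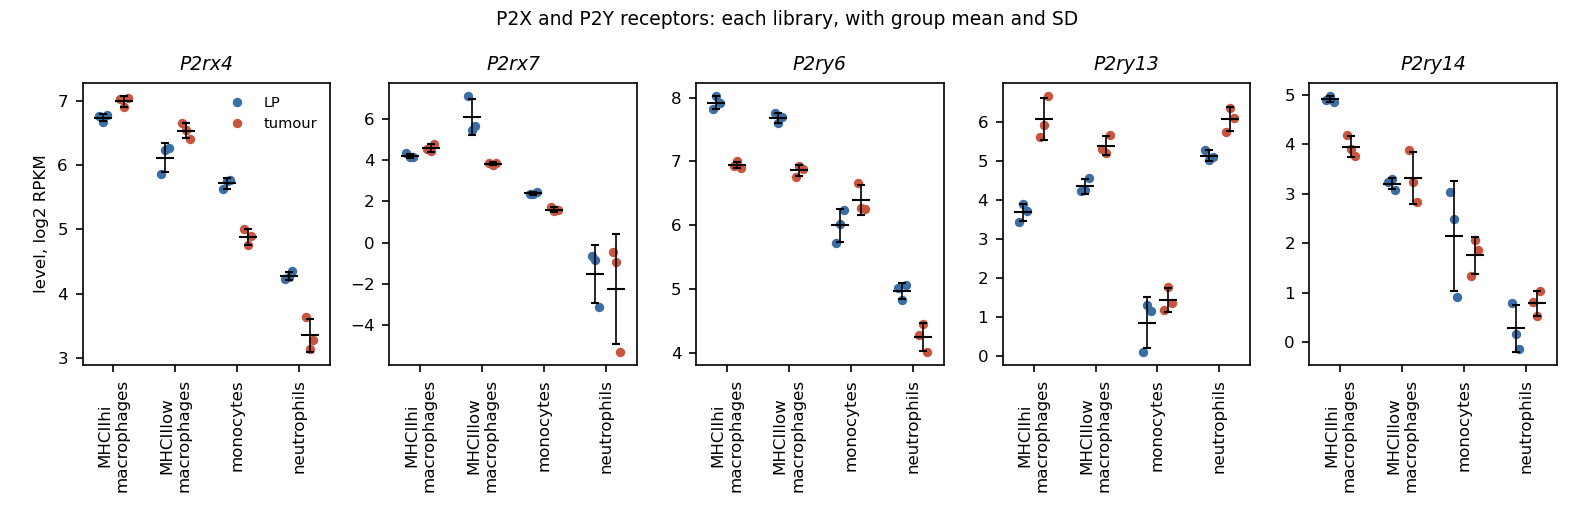
Level (log2 RPKM) of the P2X and P2Y receptors in each of the 24 libraries, LP in blue and tumour in red, with a black line and bar for the mean and SD of 3 libraries and a separate vertical scale for each gene. *P2ry13* is higher in tumour than in LP macrophages, *P2ry6* is lower, and *P2rx7* is widely spread in neutrophils.

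Of the channels, *P2rx4* (ENSMUSG00000029470.11; chromosome 5, 122707544 to 122729738, plus strand) rose in MHCIIlow macrophages and fell in monocytes and neutrophils. It stood at 109, 102 and 110 RPKM in LP and 131, 119 and 133 RPKM in tumour MHCIIhi macrophages, without overlap, a difference of 0.26 log2 units (SE 0.13, limma adjusted p = 0.18). In MHCIIlow macrophages it rose from 58.0, 75.3 and 76.8 RPKM to 101, 93.2 and 85.4 RPKM, by 0.42 log2 units (SE 0.13, limma adjusted p = 0.0211), and this call was lost with median centring (0.0554), with only the libraries compared (0.098), and on leaving out LP MHCIIlow library II (0.135) or tumour MHCIIlow library I (0.086) or V (0.0572). Quantile normalization called the rise in MHCIIhi macrophages too (0.027). In monocytes it fell from 49.3, 53.9 and 54.7 RPKM to 32.2, 26.9 and 29.7 RPKM, a change of -0.83 log2 units (SE 0.13, limma adjusted p = 3.05e-04). In neutrophils it fell from 18.7, 19.2 and 20.4 RPKM to 12.4, 8.80 and 9.73 RPKM, a change of -0.93 log2 units (SE 0.13, limma adjusted p = 1.81e-05). The groups did not overlap in either population. The summed B and plasma cell markers were lower in tumour in both populations, as given above, and their part in these falls was not tested. The tumour effect was higher in macrophages than in monocytes by 1.17 log2 units (SE 0.16, limma interaction adjusted p = 6.14e-05).

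*P2rx7* (ENSMUSG00000029468.13; chromosome 5, 122643911 to 122691432, plus strand), the channel that drives inflammasome activation by ATP, was highest in LP MHCIIlow macrophages. Its level there was 138, 44.5 and 50.8 RPKM, and library II, the highest, also had more of the marker *F13a1* (450 RPKM, against 116.9 and 136.5 RPKM) and less MHC class II (878 RPKM summed over 5 genes, against 2557 and 3885 RPKM). Tumour MHCIIlow macrophages held 14.6, 13.6 and 14.5 RPKM, below all 3 LP libraries. The change of -2.26 log2 units had an SE of 0.83 and missed the threshold (limma adjusted p = 0.0545), but 7 of 15 alternatives called it, among them voom on recovered reads (5.04e-06) and log2(RPKM + 1) (5.1e-06). The spread is shared by all groups in the fit, and *P2rx7* was counted with 13 to 83 reads in LP neutrophils and 1 to 49 reads in tumour neutrophils, which gave SDs of 1.39 and 2.66 log2 units there and at most 0.89 log2 units elsewhere. In MHCIIhi macrophages the levels were 20.1, 17.5 and 17.9 RPKM in LP and 22.9, 21.5 and 27.8 RPKM in tumour, a difference of 0.37 log2 units (limma adjusted p = 0.822) without overlap. In monocytes they were 5.07 to 5.51 RPKM in LP and 2.86 to 3.28 RPKM in tumour, also without overlap (limma adjusted p = 0.65, called with only the monocyte libraries in the fit, 0.0344). *P2rx4* and *P2rx7* lie next to each other on chromosome 5.

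*P2ry13* (ENSMUSG00000036362.1; chromosome 3, 59207892 to 59210882, minus strand), a receptor for ADP, rose in tumour macrophages. In MHCIIhi macrophages the libraries went from 10.9, 14.8 and 13.1 RPKM in LP to 49.1, 60.1 and 102 RPKM in tumour, by 2.39 log2 units (SE 0.28, a 5.23-fold rise, limma adjusted p = 4.51e-06). In MHCIIlow macrophages they went from 18.6, 18.9 and 23.7 RPKM to 39.2, 36.8 and 50.7 RPKM, by 1.04 log2 units (SE 0.28, limma adjusted p = 0.00985), and without tumour library VII, the highest, the adjusted p was 0.0523. In neutrophils they went from 38.9, 32.3 and 34.3 RPKM to 53.8, 81.6 and 68.6 RPKM, by 0.93 log2 units (SE 0.28, limma adjusted p = 0.0154), a call lost without tumour library II (0.067) and with quantile normalization (0.124). None of these 3 pairs of groups overlapped. Monocytes had 1.07 to 2.49 RPKM in LP and 2.25 to 3.42 RPKM in tumour, with overlap (limma adjusted p = 0.228). The tumour effect in macrophages exceeded that in monocytes by 1.13 log2 units (SE 0.34, limma interaction adjusted p = 0.0437), a difference called in only 11 of 27 alternatives, whose adjusted p ran from 0.00443 to 0.158.

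*P2ry14* (ENSMUSG00000036381.9; chromosome 3, 59113855 to 59153618, minus strand), a receptor for UDP-glucose, lies beside *P2ry13* within *Med12l*, which is on the opposite strand, without sharing exon bases with it. In tumour MHCIIhi macrophages it stood at 18.1, 15.1 and 13.6 RPKM against 29.7, 31.5 and 29.0 RPKM in LP. The groups did not overlap, and the difference of -0.96 log2 units (SE 0.39) missed the threshold (limma adjusted p = 0.0901) while voom (0.00262), log2(RPKM + 1) (0.0272) and a fit with only these libraries (0.00727) called it lower. In MHCIIlow macrophages it was at 9.40, 9.85 and 8.47 RPKM in LP and 14.7, 9.41 and 7.14 RPKM in tumour, with overlap (limma adjusted p = 0.889). Monocytes held 1.87 to 8.17 RPKM and neutrophils 0.912 to 2.04 RPKM over both tissues, with no difference past the threshold.

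*P2ry6* (ENSMUSG00000048779.4; chromosome 7, 100937630 to 100974649, minus strand), a receptor for UDP that is known for its part in phagocytosis, was the most abundant member in LP macrophages. It was at 227, 261 and 241 RPKM in LP and 122, 128 and 120 RPKM in tumour MHCIIhi macrophages, and at 217, 195 and 207 RPKM in LP and 108, 122 and 118 RPKM in tumour MHCIIlow macrophages. The groups did not overlap in either subset. The changes were -0.98 log2 units in MHCIIhi (SE 0.14, limma adjusted p = 3.96e-05) and -0.83 log2 units in MHCIIlow macrophages (SE 0.14, limma adjusted p = 1.82e-04). In neutrophils it went from 32.4, 28.5 and 33.5 RPKM to 19.5, 21.9 and 16.2 RPKM, a change of -0.72 log2 units (SE 0.14, limma adjusted p = 5.58e-04). In monocytes it went the other way without passing the test, from 53.0, 64.7 and 75.8 RPKM to 102, 77.2 and 76.0 RPKM (0.40 log2 units, limma adjusted p = 0.0806), although it was called with median centring (0.0335) and without LP library V (0.0377). The tumour effect was lower than in monocytes by 1.30 log2 units in macrophages (interaction of -1.30, SE 0.17, limma adjusted p = 5.33e-05) and by 1.12 log2 units in neutrophils (interaction of -1.12, SE 0.20, limma adjusted p = 0.00147).

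**Figure D4:**
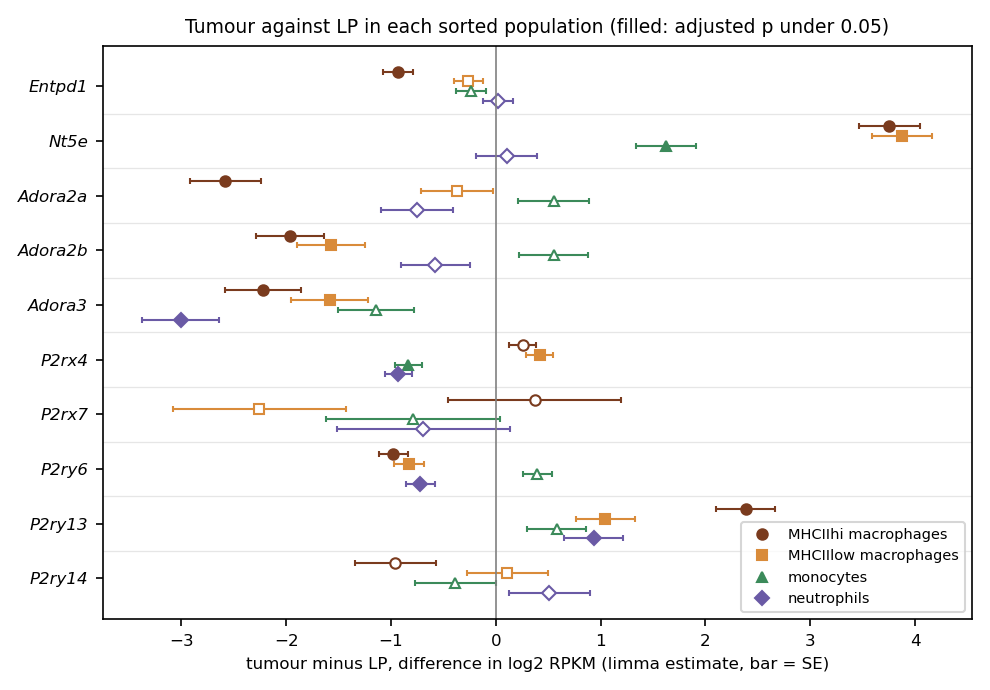
Difference of tumour minus LP (horizontal, log2 RPKM) for each of the 10 genes in each of the 4 populations, as the limma estimate with its SE from 3 libraries per group, with filled symbols for an adjusted p under 0.05. *Nt5e* is at 3.76 and 3.88 in the macrophage subsets, 1.62 in monocytes and 0.11 in neutrophils, and *Adora3* is negative in all 4 populations with the monocyte symbol open.

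Counted over the list, 2 members rose and 5 fell in tumour MHCIIhi macrophages, where 8.01% of all genes rose and 11.5% fell. In MHCIIlow macrophages 3 rose and 3 fell (all genes, 11.5% and 11.8%). In monocytes 1 rose and 1 fell (4.86% and 4.43%), and in neutrophils 1 rose and 3 fell (13.1% and 19.0%). Without regard to the test, the tumour libraries all lay above the LP libraries for 4 members and below them for 6 in MHCIIhi macrophages (all genes, 20.9% and 22.1%), and for 3 and 4 in MHCIIlow macrophages (22.7% and 19.3%). In monocytes this held for 4 and 3 members (16.2% and 15.1%), and in neutrophils for 1 and 4 (18.3% and 21.8%). The median change over the 10 members was -0.94 log2 units in MHCIIhi and -0.31 log2 units in MHCIIlow macrophages, beside 0 and 0.06 log2 units over all genes tested. In monocytes it was 0.08 log2 units beside 0, and in neutrophils -0.63 beside -0.12 log2 units. The difference of the tumour effect passed the test for 1 member between the macrophage subsets, with a higher effect in MHCIIlow (1.13% of all genes). Between macrophages and monocytes it passed for 6 members, of which 3 had the higher effect in macrophages (3.55% of all genes) and 3 the lower (5.64%). Between neutrophils and monocytes it passed for 3 members, all with the lower effect in neutrophils (5.50% of all genes). The deposited values are scaled between libraries, and the neutrophils, whose size factors were 0.465 to 0.682 times their reads, were the group in which all genes together shifted most. These comparisons share samples, since both interactions against monocytes use the same LP and tumour monocyte libraries.

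The macrophage subsets differed in LP. MHCIIlow macrophages had less *Entpd1*, *Adora2a*, *P2ry14*, *Adora3* and *P2rx4* and more *Nt5e* than MHCIIhi macrophages, 1 member higher (2.13% of all genes) and 5 lower (5.57%). *Entpd1* was lower by 1.30 log2 units (change of -1.30, SE 0.14, limma adjusted p = 1.39e-05) and *Adora2a* by 2.06 log2 units (change of -2.06, SE 0.34, limma adjusted p = 6.42e-04). *P2ry14* differed by -1.71 log2 units (SE 0.39, limma adjusted p = 0.00876) and *P2rx4* by -0.62 log2 units (SE 0.13, limma adjusted p = 0.00436), the latter lost with only these libraries in the fit (0.0538). *Adora3* differed by -1.35 log2 units (SE 0.36, limma adjusted p = 0.0258) and *Nt5e* by 0.99 log2 units (SE 0.29, limma adjusted p = 0.0402). With the donor number of the labels as a fixed replicate block, both of these were lost, with limma adjusted p = 0.128 for *Adora3* and 0.179 for *Nt5e*. No other LP library shares the number of MHCIIlow library II, so that this block also took library II out of the comparison. Leaving out any LP library of these groups except MHCIIlow III ended the *Adora3* call (0.0528 to 0.107), and leaving out MHCIIhi III (0.101), MHCIIhi IV (0.18) or MHCIIlow III (0.19) ended that of *Nt5e*, which 6 of 16 alternatives made. *P2rx7* was higher in MHCIIlow macrophages by 1.88 log2 units without passing the test (SE 0.83, limma adjusted p = 0.198), although all 3 libraries lay above the MHCIIhi ones and voom called it (9.06e-05).

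In tumour the subsets differed in 1 member, *Entpd1*, which was 0.63 log2 units lower in MHCIIlow macrophages (change of -0.63, SE 0.14, limma adjusted p = 0.0379, where 0.567% of all genes were lower). The call was lost with the fixed replicate block (0.163), with only these libraries (0.31), and on leaving out MHCIIhi I (0.125), MHCIIhi V (0.0716), MHCIIlow V (0.163) or MHCIIlow VII (0.14). *Nt5e* was 1.11 log2 units higher in MHCIIlow macrophages (SE 0.29), with limma adjusted p = 0.0693 unpaired and 0.0398 with the fixed replicate block. Every MHCIIlow library lay above every MHCIIhi library for *Nt5e* and below for *Entpd1*.

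The members also separated the populations within each tissue. With the MHCIIhi and MHCIIlow subsets averaged, LP macrophages had 5 members higher than monocytes (12.5% of all genes) and 4 lower (17.0%). Tumour macrophages had 5 higher (16.8%) and 3 lower (21.4%). The receptors *P2ry13*, *P2rx7*, *P2ry14*, *P2ry6* and *P2rx4* were higher in macrophages of both tissues. *P2ry13* was higher by 3.16 log2 units in LP (SE 0.24, limma adjusted p = 6.84e-09) and 4.29 log2 units in tumour (SE 0.24, limma adjusted p = 4.68e-11). *P2rx7* was higher by 2.76 log2 units in LP (SE 0.72, limma adjusted p = 0.00622) and 2.60 log2 units in tumour (SE 0.72, limma adjusted p = 0.00687), the latter with limma adjusted p = 0.0757 under the fixed replicate block. *Adora2a* and *Adora2b* were lower in macrophages of both tissues. For *Adora2a* the differences were -3.49 log2 units in LP (SE 0.30, limma adjusted p = 2.79e-08) and -5.52 log2 units in tumour (SE 0.30, limma adjusted p = 2.16e-11), and for *Adora2b* they were -1.56 (SE 0.28, limma adjusted p = 2.94e-04) and -3.88 log2 units (SE 0.28, limma adjusted p = 1.3e-09). *Nt5e* was lower in LP macrophages than in LP monocytes by 2.22 log2 units (change of -2.22, SE 0.25, limma adjusted p = 1.33e-06). In tumour the average of the subsets differed from monocytes by -0.03 log2 units for *Nt5e* (95% interval from -0.55 to 0.50, limma adjusted p = 0.959). The subsets lay on opposite sides of tumour monocytes (8.17 to 10.7 RPKM) without overlap. MHCIIlow macrophages were above at 11.4 to 17.0 RPKM and MHCIIhi macrophages below at 4.92 to 7.88 RPKM. *Entpd1* differed by -0.35 log2 units in LP macrophages with the subsets averaged (limma adjusted p = 0.0374). The subsets lay on opposite sides of LP monocytes (126 to 145 RPKM) without overlap. MHCIIhi macrophages were above at 163 to 171 RPKM and MHCIIlow macrophages below at 66.3 to 68.1 RPKM. The averaged call held in 10 of 19 alternatives, with adjusted p up to 0.899. Leaving out any LP macrophage or monocyte library other than MHCIIlow II ended it (0.0501 to 0.153). In tumour *Entpd1* differed by -0.71 log2 units (SE 0.12, limma adjusted p = 1.12e-04).

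Neutrophils carried the most *Entpd1* and *Nt5e* and, with tumour macrophages, the most *P2ry13*. Against monocytes 4 members were higher and 6 lower in LP (24.1% and 30.4% of all genes), and 3 were higher and 6 lower in tumour (23.3% and 34.9%). The median over all genes tested was itself shifted, by -0.24 log2 units in LP and -0.36 log2 units in tumour. *P2ry13* was higher by 4.28 log2 units in LP (SE 0.28, limma adjusted p = 2.17e-10) and 4.63 in tumour (SE 0.28, limma adjusted p = 5.65e-11). *Entpd1* was higher by 2.97 (SE 0.14, limma adjusted p = 3.54e-12) and 3.23 log2 units (SE 0.14, limma adjusted p = 8.11e-13), and *Nt5e* by 3.72 (SE 0.29, limma adjusted p = 2.32e-09) and 2.20 log2 units (SE 0.29, limma adjusted p = 2.12e-06). *Adora3* was higher in LP neutrophils than in LP monocytes by 1.82 log2 units (SE 0.36, limma adjusted p = 2.92e-04), while in tumour the groups overlapped at a difference of -0.04 log2 units (limma adjusted p = 0.95). *Adora2a*, *Adora2b*, *P2rx4*, *P2rx7*, *P2ry6* and *P2ry14* were lower in both tissues, *P2rx7* most, with differences of -3.92 log2 units in LP (SE 0.83, limma adjusted p = 4.9e-04) and -3.82 in tumour (SE 0.83, limma adjusted p = 5.41e-04). The last call was lost with only the libraries compared (0.0695). The tumour difference of *P2ry14*, -0.97 log2 units (SE 0.39, limma adjusted p = 0.0363), held in 8 of 16 alternatives, with adjusted p up to 0.347, and was lost without tumour monocyte library II (0.122) or V (0.0883) or tumour neutrophil library I (0.0657) or II (0.11).

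The order of the groups was not equally firm for all members. For *Nt5e* every step down the order of group means, from neutrophils through tumour MHCIIlow macrophages, tumour monocytes, tumour MHCIIhi macrophages, LP monocytes, LP MHCIIlow and LP MHCIIhi macrophages, separated groups whose libraries did not overlap, apart from the step between tumour and LP neutrophils. For *P2rx4* no neighbouring groups overlapped, from tumour MHCIIhi macrophages at the top to tumour neutrophils at the bottom. For *Adora2b* the LP MHCIIhi, LP MHCIIlow and LP neutrophil groups could not be ordered beyond their spread, and nor could the LP and tumour neutrophils. For *Adora3* the 4 tumour groups each overlapped their neighbour in the order. For *P2ry13* tumour neutrophils, both tumour macrophage groups and LP neutrophils likewise overlapped in sequence.

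Further genes of the pathway were taken from lists of ectonucleotidases, intracellular nucleoside diphosphatases, P2X and P2Y receptors, genes of adenosine breakdown, salvage and uptake, and genes of nucleotide release, of which 26 beyond the members were tested. In tumour MHCIIhi macrophages 4 of the 26 rose (15.4%, against 8.01% of all genes) and 6 fell (23.1%, against 11.5%). In MHCIIlow macrophages 2 rose (7.69%, against 11.5%) and 5 fell (19.2%, against 11.8%), and in monocytes 1 rose (3.85%, against 4.86%) and 3 fell (11.5%, against 4.43%). In neutrophils 4 rose (15.4%, against 13.1%) and 5 fell (19.2%, against 19.0%). The list is small, and nothing particular to it is read from these shares. *Gja1*, which encodes the hemichannel and gap junction protein connexin 43, changed by -5.33 log2 units in MHCIIhi (SE 0.52, limma adjusted p = 5.04e-07), -5.27 log2 units in MHCIIlow macrophages (SE 0.52, limma adjusted p = 4.31e-07) and -2.33 log2 units in monocytes (SE 0.52, limma adjusted p = 0.00672). Its mean was 17.0 RPKM in LP and 0.457 RPKM in tumour MHCIIhi macrophages, and it fell beside the fibroblast markers given above, whose part in the result was not tested. *Slc28a2*, a sodium-coupled carrier that takes up nucleosides, changed by -3.82 log2 units in MHCIIhi (SE 0.30, limma adjusted p = 3.38e-08) and -5.23 log2 units in MHCIIlow macrophages (SE 0.30, limma adjusted p = 8.43e-10), and 34.9% of the 51-base stretches of its transcripts also occur in *Gm14085*, so that its level is uncertain. *Entpd6*, which acts mainly on nucleoside diphosphates inside the secretory pathway, rose in MHCIIlow macrophages from a mean of 0.388 to 6.95 RPKM, by 4.22 log2 units (SE 0.48, limma adjusted p = 2.32e-06). *P2ry1*, another ADP receptor, had 0 reads in every tumour MHCIIhi library and at most 43 reads in an LP one, so no fold is given (limma adjusted p = 0.00216).

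In tumour monocytes *Cd38*, an enzyme that consumes NAD, rose by 1.22 log2 units (SE 0.28, limma adjusted p = 0.0078), and *Ada*, adenosine deaminase, changed by -0.89 log2 units with overlapping libraries (SE 0.27, limma adjusted p = 0.0448). *Cd38*, singled out after its values were seen, rose in the other populations too, by 0.98 log2 units in MHCIIhi (limma adjusted p = 0.0168) and 0.85 log2 units in MHCIIlow macrophages (limma adjusted p = 0.0316) and by 1.84 log2 units in neutrophils (limma adjusted p = 5.05e-05). In tumour neutrophils *Calhm6*, *Dpp4* and the ATP release channel *Panx1* had the greatest changes among the other genes called, all of them falls. *Calhm6* went from a mean of 5.70 to 0.237 RPKM with at most 6 reads in a tumour library (limma adjusted p = 2.28e-04), *Dpp4* from 0.791 to 0.0437 RPKM with at most 10 reads (limma adjusted p = 0.00838) and *Panx1* from 1.68 to 0.549 RPKM with at most 52 reads (limma adjusted p = 0.0423). The libraries of *Dpp4* and *Panx1* overlapped between the tissues. In this comparison limma on the deposited values called 9 of the 26 other genes, and voom called 5.

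**Figure D5:**
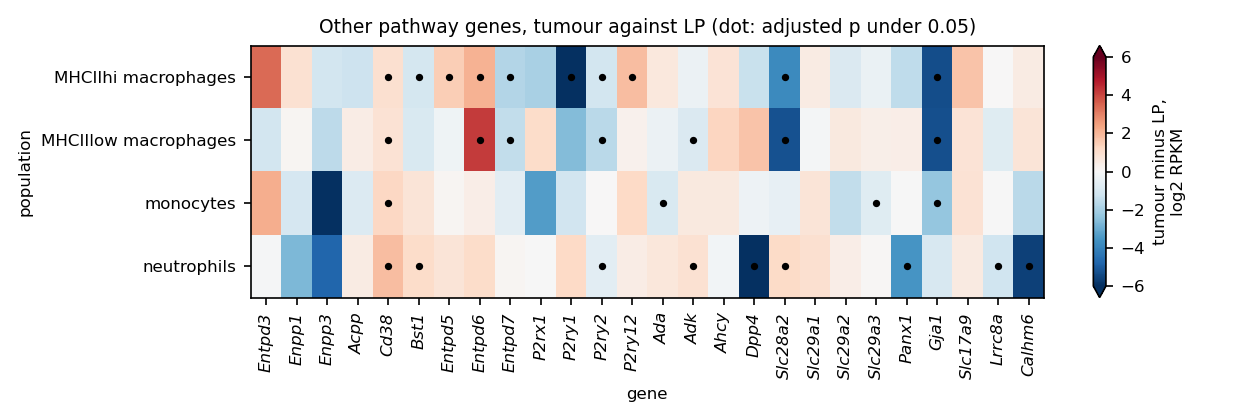
Difference of tumour minus LP (colour, log2 RPKM, with the scale ending at 6 in each direction) for the 26 other genes of the pathway (columns) in the 4 populations (rows), with a dot where the limma adjusted p is under 0.05. *Cd38* has a dot in all 4 rows, and *Gja1* and *Slc28a2* are the darkest blue of the called genes that the macrophage rows share.

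Between the macrophage subsets in LP 2 of the 26 other genes were higher in MHCIIlow macrophages (7.69%, against 2.13% of all genes) and 3 lower (11.5%, against 5.57%). There voom called 13 of the 26. In tumour 0 passed the limma test, with 1 at an unadjusted p under 0.05 and 1 called by voom. *Dpp4*, the peptidase CD26 that binds adenosine deaminase, was lower in LP MHCIIlow macrophages, at a mean of 0.155 against 3.28 RPKM (limma adjusted p = 0.0272), *Entpd6* by -2.41 log2 units (SE 0.48, limma adjusted p = 0.00342), and *Entpd5* was higher by 1.63 log2 units (SE 0.41, limma adjusted p = 0.0182). Against monocytes, 8 were higher (30.8%, against 12.5% of all genes) and 2 lower (7.69%, against 17.0%) in LP macrophages, led by *Slc29a1*, an equilibrative nucleoside carrier, at 3.82 log2 units (SE 0.36, limma adjusted p = 1.15e-07), *P2ry12* at 2.96 log2 units (SE 0.37, limma adjusted p = 3.87e-06) and *P2ry1* at -4.34 log2 units (SE 1.18, limma adjusted p = 0.00859). In tumour macrophages 9 were higher (34.6%, against 16.8%) and 6 lower (23.1%, against 21.4%) than in monocytes. Those that differed most were *P2ry1*, with at most 2 reads in a tumour macrophage library (limma adjusted p = 2.88e-05), *Entpd3*, with at most 20 reads (limma adjusted p = 0.0216), and *Slc28a2* at -4.23 log2 units (SE 0.26, limma adjusted p = 1.13e-10). Against monocytes, neutrophils had 8 higher and 8 lower in LP (30.8% each, against 24.1% and 30.4% of all genes) and 8 higher and 11 lower in tumour (30.8% and 42.3%, against 23.3% and 34.9%). *Entpd3*, a further surface ATP hydrolase, had means of 39.0 RPKM in LP and 37.3 RPKM in tumour neutrophils against 1.21 and 0.419 RPKM in monocytes (limma adjusted p = 0.00105 and 0.00923). *P2ry2*, a receptor for ATP and UTP, was higher by 3.32 log2 units in LP neutrophils (SE 0.22, limma adjusted p = 2.1e-10), where *Slc29a3* was lower, at -3.10 log2 units (SE 0.21, limma adjusted p = 2.88e-10). In tumour neutrophils *Dpp4* (limma adjusted p = 6.88e-04) and *Panx1* (limma adjusted p = 2.07e-04) were lower than in monocytes.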

How the data were processed

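RNA of 24 pools of sorted cells (8 groups of 3) was sequenced as paired reads of 51 bases. Per the labels and methods, the authors prepared libraries with a modified SMARTSeq v2 protocol without molecular identifiers, aligned to GRCm38 with STAR 2.3, counted with featureCounts 1.5 on GENCODE genes, named edgeR in the submitters' processing notes, left out low genes, and deposited log2 RPKM values. Of these values, 100% came out as whole reads (tolerance 0.01 read, prior 0.25 read); spike-in rows numbered 0. The study tested counts with limma and voom.

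Here the deposited log2 values were fitted with limma 3.58.1 (R 4.3.3, trend, 8 group means, 24 libraries), over genes with a mean of at least 1 RPKM in at least 1 group, with Benjamini-Hochberg adjustment within each comparison and a threshold of 0.05, two-sided. The code was tested on simulated data. An exact permutation test of 3 against 3 cannot go below p = 0.1, so none was run. P-values measure the spread between pools. Annotation was GENCODE M21 and RefSeq. Alternatives were log2(RPKM + 1), log2(RPKM + 0.1), no filter, a filter of 5 RPKM, quantile normalization, median centring, only the libraries compared, voom on recovered reads, each library left out, and the donor number as a random or fixed replicate block. That number, given in the labels, was taken to mark the same donor pool and so to pair libraries within a tissue. The deviations of 29 such pairs correlated with r from -0.07 to 0.25 (median 0.02), and 5 exceeded 0.1. All members are named, and of other pathway genes up to 3 per comparison with the greatest change among those past the threshold. The members and lists were chosen with earlier results of these data known.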

Additional observations from a re-analysis of the deposited data

Results flagged for a closer look

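The tumour effect (tumour minus LP) differed between populations by the limma interaction test for 7 of the 10 members, in 10 results. Against monocytes, the effect in macrophages, averaged over the subsets, was higher by 2.19 log2 units for *Nt5e* (SE 0.36), 1.17 for *P2rx4* (SE 0.16) and 1.13 for *P2ry13* (SE 0.34). It differed from the monocyte effect by -2.32 log2 units for *Adora2b* (SE 0.40), -2.03 for *Adora2a* (SE 0.42) and -1.30 for *P2ry6* (SE 0.17). Against monocytes, the effect in neutrophils differed by -1.52 log2 units for *Nt5e* (SE 0.41), -1.86 for *Adora3* (SE 0.51) and -1.12 for *P2ry6* (SE 0.20). Between the macrophage subsets, the *Adora2a* effect was 2.21 log2 units higher in MHCIIlow than in MHCIIhi macrophages (SE 0.48). The monocyte libraries enter 9 of these 10 results. B and plasma cell markers summed to 1457 to 5557 RPKM in LP and 18.8 to 63.6 RPKM in tumour monocytes. Of 9 such markers 7 had a lower mean in tumour monocytes, 5 of them without overlap, and 2 a higher mean. Their part in these results was not tested.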

How the results depend on the processing

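Of the 72 member results that passed the test, 57 passed in every alternative run and 15 were lost in at least 1. None of the 1270 alternative values of these results reversed, 1184 kept the call and 86 lost it. The losses were 2 with log2(RPKM + 1), 1 with log2(RPKM + 0.1), 2 with no filter, 0 with the 5 RPKM filter, 5 with quantile normalization, 4 with median centring, 8 with only the libraries compared and 4 with voom, and 12 results were lost on leaving out some library. In tumour against LP monocytes voom called 4 members, against 2. Between tumour macrophage subsets, where 1 member was called, log2(RPKM + 1) and quantile normalization called 2, voom 3 and only the libraries compared 0, and leaving out a library gave 0 to 1, with 0 without MHCIIhi I or V or MHCIIlow V or VII. For the tumour effect between macrophage subsets, also 1, log2(RPKM + 1) and voom called 3, quantile normalization 2, only the libraries compared 0, and leaving out a library 0 to 1, with 0 without LP MHCIIhi IV or V, LP MHCIIlow II, tumour MHCIIhi VII or tumour MHCIIlow I. For the tumour effect in neutrophils against monocytes, 3 were called, and 1 to 3 on leaving out a library, with 1 without tumour monocyte library I or V. The cause of these changes was not tested.

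The random replicate block changed 0 calls (consensus correlation 0.048), and the fixed replicate block, given for 43 called results within a tissue, lost 4 of them (with limma adjusted p = 0.128 for *Adora3* and 0.179 for *Nt5e* between LP macrophage subsets, 0.163 for *Entpd1* between tumour subsets and 0.0757 for *P2rx7* between tumour macrophages and monocytes) and gained *Nt5e* between the tumour macrophage subsets (0.0398). It changed no other call. In LP the fixed block also took MHCIIlow library II, the only LP library of that number, out of the comparisons. Low counts of the gene limit *P2rx7* in neutrophils, where a library held as few as 1 read.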
